A study of Mus musculus with 31 samples.

Results

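The genes described here are 8 that carry cholesterol through to testosterone in the fetal testis: Scarb1, Star, Cyp11a1, Fdx1, Hsd3b1, Cyp17a1, Hsd17b1 and Hsd17b3. Each was followed through the array probe sets (groups of short probes that report on a transcript) whose annotation names that gene alone. The 8 genes had 14 such probe sets, and the one with the highest mean over the 31 arrays stood for its gene, giving 8 of the 18194 genes on the array with a probe set of their own. RNA came from whole mouse fetal gonads aged 12, 14 or 16 days after mating (days post coitum, dpc). Ovaries and testes were taken from wild-type embryos and from Wv/Wv embryos, which are homozygous for a point mutation of the receptor tyrosine kinase Kit. Wild-type ovaries were measured on 2, 3 and 3 arrays at 12, 14 and 16 dpc, and Wv/Wv ovaries on 2, 3 and 3. Wild-type testes were measured on 1, 3 and 3 arrays at these ages, and Wv/Wv testes on 3, 2 and 3. Titles number the arrays of a group as biological replicates, without saying how many embryos each one holds, so a p-value reflects array-to-array spread within groups, which may be technical. The mutation is carried by every cell of the embryo, so a genotype difference is not a germ-cell difference alone. In RNA from whole gonads, fewer cells of a type and less RNA per cell cannot be told apart.

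Leydig cells, which lie between the testis cords, are the steroid-making cells of the testis. They take up cholesterol through the lipoprotein receptor Scarb1, and Star moves it into the mitochondrion. There Cyp11a1 cuts its side chain to give pregnenolone, with electrons that reach it through the small iron-sulphur protein Fdx1. Hsd3b1 and Cyp17a1 then lead to androstenedione, and 17-beta-hydroxysteroid dehydrogenases such as Hsd17b3 and Hsd17b1 reduce 17-ketosteroids, the last step towards testosterone. In the fetal mouse testis that last step is known to take place largely in Sertoli cells, the somatic cells inside the cords. Kit acts in primordial germ cells, and embryos with the Wv mutation on both copies are known to have few of them.

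RefSeq promoter windows of 300 bases, 250 before and 50 after a transcription start (assembly GRCm38.p6), were at hand for 4 of the 8 genes. They are shown because these 4 transcripts were higher in the later testes, and because Nr5a1 and Gata4 are textbook regulators of steroid enzymes. Windows were searched on both strands for the Nr5a1 core CAAGGT, the nuclear receptor half-site AGGTCA, which can overlap it, and the GATA motif AGATAA. Capitals mark the matches, none of which overlap here, in the sequences printed 5′ to 3′ on the strand of the gene.
Cyp11a1, chr9:58014702-58015001 (+): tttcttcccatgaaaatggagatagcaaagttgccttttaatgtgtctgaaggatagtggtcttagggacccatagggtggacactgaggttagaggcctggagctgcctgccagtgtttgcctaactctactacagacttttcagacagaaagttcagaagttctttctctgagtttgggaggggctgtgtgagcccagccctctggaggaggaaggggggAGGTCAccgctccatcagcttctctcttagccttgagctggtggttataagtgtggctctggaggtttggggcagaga
Fdx1, chr9:51963553-51963852 (-): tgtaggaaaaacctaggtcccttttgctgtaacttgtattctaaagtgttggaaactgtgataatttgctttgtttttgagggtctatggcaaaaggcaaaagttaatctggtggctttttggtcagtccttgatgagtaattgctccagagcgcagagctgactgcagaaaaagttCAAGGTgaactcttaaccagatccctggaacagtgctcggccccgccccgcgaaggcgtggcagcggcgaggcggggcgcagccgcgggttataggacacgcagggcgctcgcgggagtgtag
Hsd3b1, chr3:98859745-98860044 (-): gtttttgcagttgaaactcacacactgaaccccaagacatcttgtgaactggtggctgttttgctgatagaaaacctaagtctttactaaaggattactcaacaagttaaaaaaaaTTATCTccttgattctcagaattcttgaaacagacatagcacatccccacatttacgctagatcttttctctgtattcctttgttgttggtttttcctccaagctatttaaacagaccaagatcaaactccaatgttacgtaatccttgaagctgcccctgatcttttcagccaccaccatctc
Hsd17b3, chr13:64089152-64089451 (-): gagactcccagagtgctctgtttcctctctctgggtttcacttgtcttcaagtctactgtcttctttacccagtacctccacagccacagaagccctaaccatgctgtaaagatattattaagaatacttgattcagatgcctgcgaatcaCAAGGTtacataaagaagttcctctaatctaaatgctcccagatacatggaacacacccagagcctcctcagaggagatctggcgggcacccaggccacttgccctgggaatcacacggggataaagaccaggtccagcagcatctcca

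The Fdx1 window held CAAGGT starting 73 bases before the start site, and the Hsd17b3 window held it 99 bases before. The Cyp11a1 window held AGGTCA 28 bases before its start, while a window at a second annotated Cyp11a1 start on chromosome 9, from 57997774 to 57998073, held none of the 3 motifs. The Hsd3b1 window held AGATAA on the opposite strand, printed as TTATCT, 134 bases before the start. Of 32851 mouse promoter windows of this length, 13% held CAAGGT, 16.3% held AGGTCA and 11.2% held AGATAA. Such matches are therefore frequent, and whether any of them is used was not measured.

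The signals are log2 values on the RMA scale, and differences are log2 differences with the standard error of a limma fit (1 mean per group over all 31 arrays, 19 residual degrees of freedom). A difference is named as called where its Benjamini-Hochberg adjusted p over the 18194 genes lay below 0.05. Signals under 5.387, the 40th percentile of all values, are treated as low, and a fold against a group wholly below it is given as a lower bound. The arrays fell into a narrow-spread class of 10, with SDs over probe sets of 1.77 to 2.18, and a wide-spread class of 21, with SDs of 2.33 to 2.39. The gap between the 3′ and 5′ Gapdh control probe sets, a sign of RNA or target length, was 0.70 ± 0.19 (SD, n = 10) in the narrow class and 2.01 ± 0.19 (SD, n = 21) in the wide class. All wild-type ovaries at 16 dpc were narrow-spread, as were 1 wild-type and 1 Wv/Wv testis array at 16 dpc, 1 Wv/Wv testis array at 14 dpc, and 4 other ovary arrays. Array 1 of the wild-type testes at 16 dpc had the narrowest spread of all (SD 1.77). With the class as a term in the fit, narrow-spread arrays read lower by -1.93 ± 0.18 (SE) for Scarb1, by -0.81 ± 0.13 for Fdx1 and by -0.41 ± 0.16 for Cyp17a1, and higher by 1.02 ± 0.15 for Hsd17b3. For Cyp11a1 (-0.20 ± 0.19), Star (-0.27 ± 0.18), Hsd3b1 (-0.39 ± 0.22) and Hsd17b1 (0.05 ± 0.24), the class shift was within 2 SE.

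Between 12 and 14 dpc most of the steroid transcripts of the testis rose steeply, in wild-type and in Wv/Wv embryos, and they read high at 16 dpc too. Cyp17a1 and Cyp11a1 showed the steepest rises, 170-fold and 45.9-fold in wild-type testes, followed by Hsd3b1 (30.1-fold), Star (14.8-fold) and Fdx1 (5.27-fold). In wild-type testes 5 of the 8 genes were called higher at 14 than at 12 dpc, against 0.583% of all genes, and in Wv/Wv testes 6 of 8, against 1.36%. The wild-type testis at 12 dpc is a single array, which the fit assumes to vary like the other groups. That array stood apart in 1 respect: the placental hormone transcript Prl8a2 read 8.73 in it, and at most 5.98 in the other 30 arrays.

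**Figure D1:**
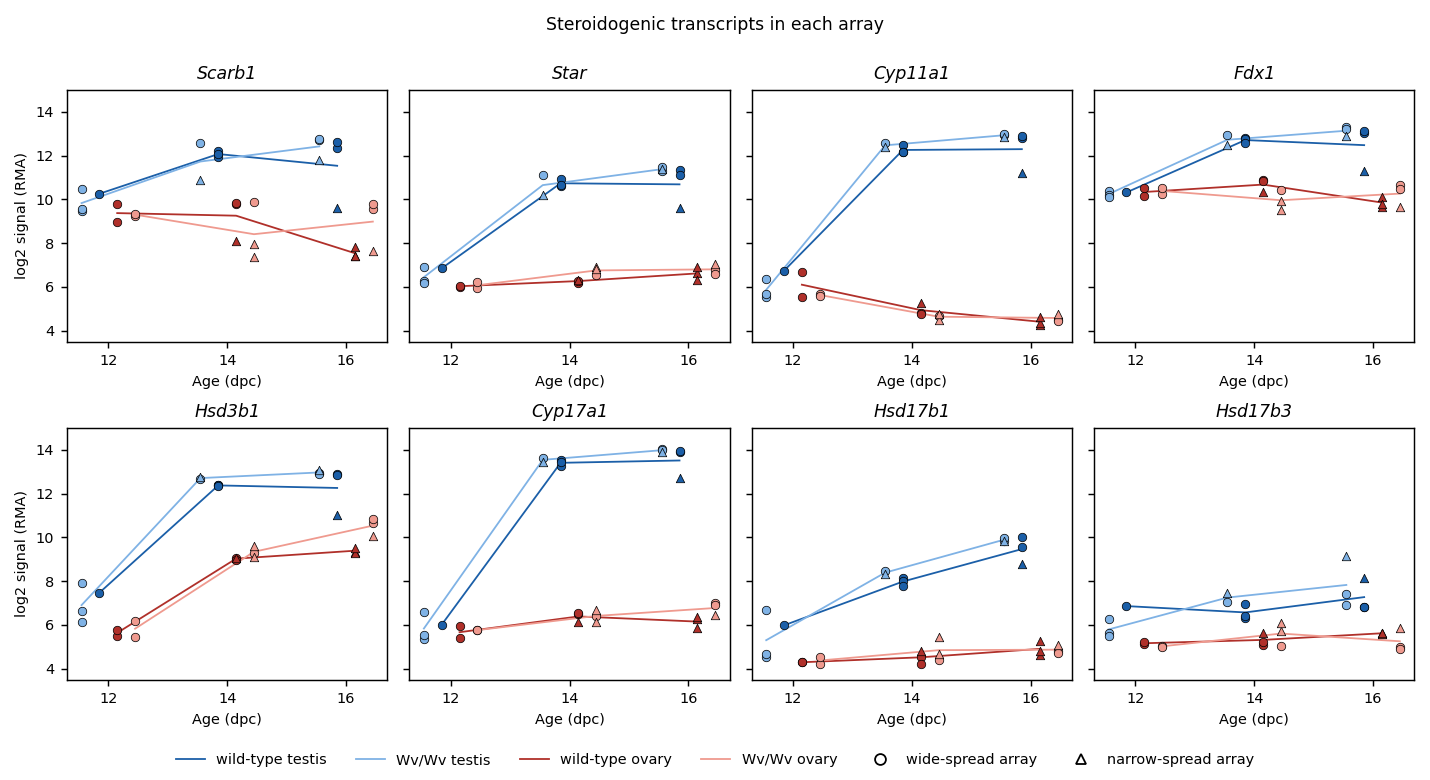
Log2 signal of the 8 transcripts (vertical axes) against age in days post coitum (horizontal axes, points shifted sideways by group), 1 point per array, with lines through group means. Circles are wide-spread and triangles narrow-spread arrays. Apart from Hsd17b3 in wild type, the testis means are higher at 14 than at 12 dpc, and later testes reach between 12.72 and 14.04 for Cyp17a1, while ovary values of that gene stay between 5.40 and 6.99.

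Scarb1, the receptor that brings in lipoprotein cholesterol, read well above the low-signal limit in every gonad at 12 dpc. At 12 dpc its signal was 10.26 in the wild-type testis, 10.46, 9.49 and 9.55 in the Wv/Wv testes, 8.96 and 9.79 in the wild-type ovaries and 9.26 and 9.35 in the Wv/Wv ovaries. In wild-type testes it read 12.21, 11.92 and 12.10 at 14 dpc and 9.60, 12.37 and 12.65 at 16 dpc, where the low value is the narrowest-spread array. In Wv/Wv testes it read 12.56 and 10.91 at 14 dpc and 11.79, 12.73 and 12.76 at 16 dpc, the lower value at each age being the narrow-spread array. Ovaries at these ages read between 7.38 and 9.90, and the highest of them overlapped the lowest testis array. Testes exceeded ovaries by 2.82 ± 0.71 (SE, adjusted p = 0.015, 7.07-fold) in wild type at 14 dpc and by 4.00 ± 0.71 (adjusted p = 0.000511, 16-fold) at 16 dpc. The call at 14 dpc was lost without wild-type ovary array 1 (2.24, adjusted p = 0.123), without testis array 1 (2.75, adjusted p = 0.0599) or without testis array 3 (2.81, adjusted p = 0.0547). In Wv/Wv gonads the differences were 3.32 ± 0.80 (adjusted p = 0.015) at 14 dpc and 3.44 ± 0.71 (adjusted p = 0.00232) at 16 dpc. The Wv/Wv call at 14 dpc was lost without testis array 1 (2.50, adjusted p = 0.363), ovary array 2 (3.09, adjusted p = 0.065) or ovary array 3 (2.81, adjusted p = 0.096). Since all wild-type ovaries at 16 dpc are narrow-spread, the difference that sets the 1 narrow-spread testis against them is the one within a class, and it was 2.06. The rise from 12 to 14 dpc was not called, at 1.82 ± 1.01 in wild-type and 1.90 ± 0.80 in Wv/Wv testes. With the class in the fit it was called in both, at 1.82 (adjusted p = 0.0135) and 2.87 (adjusted p = 3.34e-06). The 3 Scarb1 probe sets gave 2.82, 2.97 and 2.21 between wild-type testis and ovary at 14 dpc. At 16 dpc they gave 4.00, 4.10 and 2.70, all called. The last one departed from the other pair in wild-type ovaries, where its step from 12 to 16 dpc was 0.07 against -1.84 and -1.85, none called. In those ovaries age goes together with array class.

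Star, the carrier that supplies the mitochondrion with cholesterol, was not called between testis and ovary at 12 dpc and was far above its ovarian level afterwards. It read 6.85 in the wild-type testis and 6.92, 6.25 and 6.16 in the Wv/Wv testes at 12 dpc. At 14 dpc it read 10.95, 10.62 and 10.65 in wild-type and 11.11 and 10.20 in Wv/Wv testes, and at 16 dpc 9.60, 11.33 and 11.14 in wild-type and 11.39, 11.29 and 11.47 in Wv/Wv testes. No ovary array passed 7.04, so that every later testis array lay at least 2.56 above every other array. The wild-type difference between testis and ovary was 4.47 ± 0.32 (22.2-fold, adjusted p = 9.02e-10) at 14 dpc and 4.07 ± 0.32 (16.8-fold, adjusted p = 3.78e-09) at 16 dpc. In Wv/Wv gonads it was 3.90 ± 0.35 (14.9-fold) and 4.58 ± 0.32 (24-fold), both called. The other Star probe sets gave 4.68 and 4.38 in wild type at 14 dpc. At 12 dpc the first gave 0.45 ± 0.49 in wild type and 0.57 ± 0.36 in Wv/Wv. The second gave 1.66 ± 0.51 and 1.27 ± 0.38 at 12 dpc, against 0.82 and 0.37 on the chosen probe set, none called.

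Cyp11a1, the side-chain cleavage enzyme and the first committed step of steroid synthesis, rose in testes of both genotypes. In wild-type ovaries it read lower at 16 than at 12 dpc, a comparison in which age goes together with array class. In testes it read 6.74 at 12 dpc in wild type and 6.37, 5.54 and 5.69 in Wv/Wv. Wild-type testes then read 12.47, 12.16 and 12.16 at 14 dpc and 11.19, 12.80 and 12.91 at 16 dpc, and Wv/Wv testes 12.57 and 12.38 at 14 dpc and 12.86, 12.95 and 13.00 at 16 dpc. The lowest of these 11 arrays lay 4.45 above the highest of the 20 others. Wild-type testes rose by 5.52 ± 0.46 from 12 to 14 dpc (adjusted p = 2.23e-07) and Wv/Wv testes by 6.61 ± 0.37 (adjusted p = 3.9e-11). In ovaries Cyp11a1 was 5.54 and 6.66 in wild type and 5.66 and 5.60 in Wv/Wv at 12 dpc, and below the low-signal limit in all 12 later ovary arrays (4.27 to 5.25). The testis was therefore at least 118-fold above the ovary in wild type at 14 dpc and at least 120-fold at 16 dpc, and at least 136-fold and 188-fold in Wv/Wv. The fitted differences were 7.33 ± 0.33 and 7.89 ± 0.33 in wild type and 7.84 ± 0.37 and 8.36 ± 0.33 in Wv/Wv. Cyp11a1 had 2 further probe sets that did not follow the chosen one (Pearson r of 0.15 and 0.31 over the 31 arrays). They gave 0.30 and -0.08 between wild-type testis and ovary at 14 dpc, with signals of at most 7.18 and 6.25.

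Fdx1, the electron donor of Cyp11a1, was abundant in every group and rose by less. At 12 dpc all 8 arrays of both sexes lay between 10.12 and 10.51. Wild-type testes read 12.79, 12.77 and 12.59 at 14 dpc and 11.30, 13.02 and 13.13 at 16 dpc, and Wv/Wv testes read 12.96 and 12.50, then 12.88, 13.32 and 13.23. Ovaries stayed between 9.53 and 10.87, and the lowest later testis array was 0.43 above that. From 12 to 14 dpc Fdx1 rose by 2.40 ± 0.49 in wild-type (adjusted p = 0.0139) and 2.49 ± 0.39 in Wv/Wv testes (adjusted p = 0.000317). Its testis excess was 2.04 ± 0.35 (4.1-fold) at 14 dpc and 2.63 ± 0.35 (6.18-fold) at 16 dpc in wild type, and 2.77 ± 0.39 (6.82-fold) and 2.87 ± 0.35 (7.32-fold) in Wv/Wv. These 4 differences were called, and the 16 dpc wild-type difference within narrow-spread arrays was 1.45.

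Hsd3b1, which turns pregnenolone into progesterone, was the one member called higher at 16 than at 12 dpc in the ovaries of both genotypes. Testes at 12 dpc read 7.47 in wild type and 7.93, 6.13 and 6.65 in Wv/Wv. They read 12.41, 12.38 and 12.35 in wild type at 14 dpc, 11.01, 12.92 and 12.86 at 16 dpc, and in Wv/Wv 12.68 and 12.75, then 13.09, 12.93 and 12.90. The rise from 12 to 14 dpc was 4.91 ± 0.56 in wild-type (adjusted p = 1.76e-05) and 5.82 ± 0.44 in Wv/Wv testes (adjusted p = 1.1e-08). Wild-type ovaries read 5.49 and 5.78 at 12 dpc, 9.06, 9.08 and 8.95 at 14 dpc and 9.35, 9.30 and 9.53 at 16 dpc. Wv/Wv ovaries read 5.46 and 6.19, then 9.31, 9.10 and 9.62, then 10.68, 10.08 and 10.86. From 12 to 16 dpc Hsd3b1 rose in ovaries by 3.76 ± 0.44 in wild type (13.5-fold, adjusted p = 4.22e-06) and by 4.71 ± 0.44 in Wv/Wv (adjusted p = 3.69e-07). In wild type these 2 ages also differ in array class. The wide-spread wild-type ovaries had a mean of 5.63 at 12 dpc and of 9.01 at 14 dpc. The testis excess was smaller than the rise, at 3.35 ± 0.39 (10.2-fold) and 2.87 ± 0.39 (7.3-fold) in wild type and 3.38 ± 0.44 (10.4-fold) and 2.44 ± 0.39 (5.42-fold) in Wv/Wv at 14 and 16 dpc, all called. The lowest later testis array, narrow-spread array 1 of wild type at 16 dpc, was 0.15 above the highest ovary. Mouse Hsd3b genes are close copies of each other, so this probe set may also read a paralog such as Hsd3b6, which was not analysed here.

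Cyp17a1, which adds the 17-hydroxyl group and then removes the side chain of progesterone to give androstenedione, had the largest rise of the 8. At 12 dpc it read 6.01 in the wild-type testis and 6.59, 5.37 and 5.54 in Wv/Wv testes, where the ovaries read 5.40 and 5.93 in wild type and 5.76 and 5.76 in Wv/Wv. The wild-type testis array was thus just above the ovaries of its age, and the Wv/Wv testes lay on both sides of them. At 14 dpc wild-type testes read 13.54, 13.26 and 13.44 and Wv/Wv testes 13.65 and 13.45. At 16 dpc they read 12.72, 13.89 and 13.95, and 13.92, 14.04 and 14.01. The 11 later testis arrays were all at least 5.73 above the 20 other arrays, and the gap between group means, 6.64, was the widest among the 8 genes. The rise was 7.41 ± 0.42 in wild-type (adjusted p = 1.25e-10) and 7.72 ± 0.33 in Wv/Wv testes (adjusted p = 3.02e-13). Testis exceeded ovary by 7.03 ± 0.30 (130-fold) and 7.37 ± 0.30 (165-fold) in wild type and by 7.14 ± 0.33 (141-fold) and 7.22 ± 0.30 (149-fold) in Wv/Wv, at 14 and 16 dpc.

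Hsd17b1, a 17-beta-hydroxysteroid dehydrogenase, had the largest step of the 8 between testes at 14 and 16 dpc in both genotypes, a step that was not called. Testes read 5.98 in wild type and 6.68, 4.53 and 4.69 in Wv/Wv at 12 dpc. Wild-type testes read 8.14, 8.02 and 7.79 at 14 dpc and 8.80, 9.56 and 10.04 at 16 dpc, and Wv/Wv testes 8.45 and 8.33, then 9.86, 9.86 and 9.97. In neither genotype did the arrays at 14 and 16 dpc overlap. That step was 1.48 ± 0.39 in wild type (adjusted p = 0.0876) and 1.51 ± 0.44 in Wv/Wv (adjusted p = 0.55), against -0.54 to 0.70 for the other members in wild type and 0.26 to 0.73 in Wv/Wv. Without wild-type testis array 1 at 16 dpc the wild-type step was called, at 1.81 (adjusted p = 0.0318). The earlier step, from 12 to 14 dpc, was called in Wv/Wv (3.09 ± 0.44, adjusted p = 0.000108) and not in wild type (2.01 ± 0.55, adjusted p = 0.118). Fitted to the compared arrays alone the calls turned round, with adjusted p = 0.000752 in wild type and 0.148 in Wv/Wv, and the wild-type step was also called with the class as a term (adjusted p = 0.045). Ovaries read between 4.23 and 5.46, in all but 1 array below the low-signal limit. The testis excess was 3.46 ± 0.39 (at least 6.04-fold) at 14 dpc and 4.56 ± 0.39 (at least 16.9-fold) at 16 dpc in wild type, and 3.55 ± 0.44 and 5.03 ± 0.39 (at least 22.8-fold at 16 dpc) in Wv/Wv, all called.

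Hsd17b3, the dehydrogenase best known for making testosterone from androstenedione, showed the smallest testis excess at 14 dpc in both genotypes and at 16 dpc in wild type, and no called rise between neighbouring ages. The wild-type testis at 12 dpc read 6.86, as high as the wild-type testes at 14 dpc (6.33, 6.42 and 6.96). Wild-type testes at 16 dpc read 8.14, 6.84 and 6.83, and the high value is the narrow-spread array. Wv/Wv testes read 6.26, 5.61 and 5.50 at 12 dpc, 7.04 and 7.46 at 14 dpc and 9.13, 6.93 and 7.42 at 16 dpc, again with the narrow-spread array highest at each later age. The step from 12 to 14 dpc was -0.29 ± 0.60 in wild type (adjusted p = 1) and 1.47 ± 0.47 in Wv/Wv (adjusted p = 0.139). The Wv/Wv step was called with the class as a term (0.96, adjusted p = 0.0454) and on wide-spread arrays alone (1.26, adjusted p = 0.0146). Ovaries read between 4.90 and 6.07. The testis excess was 1.25 ± 0.42 (adjusted p = 0.094) in wild type and 1.65 ± 0.47 (adjusted p = 0.0529) in Wv/Wv at 14 dpc, neither called. At 16 dpc it was 1.65 ± 0.42 (3.14-fold, adjusted p = 0.0128) in wild type and 2.58 ± 0.42 (5.96-fold, adjusted p = 0.000185) in Wv/Wv. With the class as a term in the fit, the 14 dpc excess was called in both genotypes, at 1.59 (adjusted p = 4.83e-05) in wild type and 1.82 (adjusted p = 3.97e-05) in Wv/Wv. With arrays centred on housekeeping genes, the 16 dpc excess in wild type was 1.77 (adjusted p = 0.135).

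Put together, no member was called between testis and ovary at 12 dpc in either genotype, against 0.214% of all genes called higher in testes in wild type and 0.275% in Wv/Wv. At an unadjusted p below 0.05 there were 3 members in wild type and 2 in Wv/Wv, against 499 and 654 of all 18194 genes. In wild type these 3 were Hsd3b1 (1.83 ± 0.59), Hsd17b1 (1.69 ± 0.59) and Hsd17b3 (1.70 ± 0.63). Hsd17b3 was called at 12 dpc in wild type with the class in the fit (1.70, adjusted p = 0.0175), and Hsd3b1 as well when array 1 of the wild-type testes at 16 dpc was also left out (1.83, adjusted p = 0.0283). At 14 dpc 7 of the 8 were called higher in testes in wild type, against 3.17% of all genes, and 7 of 8 in Wv/Wv, against 2.32%. At 16 dpc all 8 were called in both genotypes, against 4.50% and 3.79% of all genes. The median excess over the 8 was 0.85, 3.41 and 4.03 at the 3 ages in wild type and 0.45, 3.46 and 4.01 in Wv/Wv, where the median over all genes lay between -0.05 and 0.05. Fitted to the compared arrays alone, the wild-type 16 dpc comparison kept 4 of the 8 calls. The share of all genes called in that fit is not given here, so whether the loss is particular to these genes is not known. From 14 to 16 dpc no member was called higher in wild-type testes, against 0.368% of all genes, or in Wv/Wv testes, against 0.0715%. An unadjusted p below 0.05 was reached by 1 member in each genotype, Hsd17b1, and by 2789 and 458 of all 18194 genes.

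**Figure D2:**
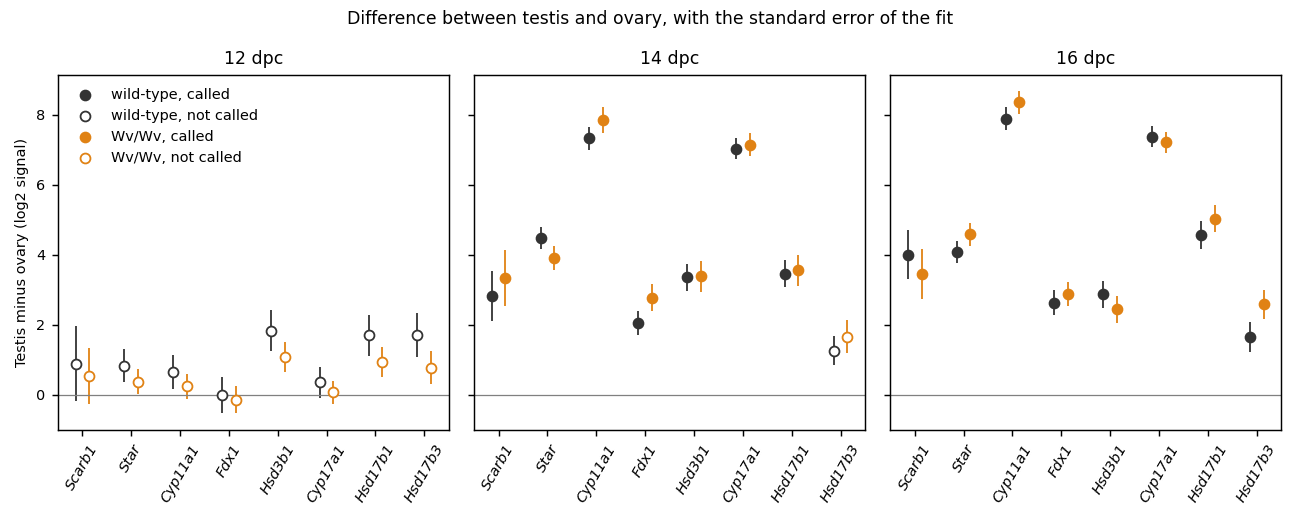
Testis minus ovary difference of each gene (vertical axis, log2 signal) at 12, 14 and 16 dpc, with the standard error of the limma fit as bars, for wild-type (dark) and Wv/Wv (orange) gonads. Filled points are called. Differences at 12 dpc reach at most 1.83, while at 16 dpc all are called and reach 8.36 for Cyp11a1.

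Ranked by group mean, the 4 later testis groups were the 4 highest of the 12 groups for 7 of the 8 genes, and for Hsd17b3 the widest step in the order lay below 5 groups, with the single wild-type testis array at 12 dpc (6.86) ranked above the wild-type testes at 14 dpc (6.57). Neighbouring groups in the order mostly overlapped in their arrays. Of the 11 neighbouring pairs, 4 did not overlap for Cyp11a1, 2 for Cyp17a1, 2 for Star, 6 for Hsd3b1, 3 for Hsd17b1, 3 for Hsd17b3, 0 for Scarb1 and 1 for Fdx1. Hsd3b1 had the most such pairs. With 1 to 3 arrays per group, sorted by their own means, these counts do not measure how distinct the groups are. The span between the lowest and highest group mean of Hsd3b1 was 7.34. That span was 8.53 for Cyp11a1, 8.33 for Cyp17a1, 5.61 for Hsd17b1, 5.35 for Star, 4.88 for Scarb1, 3.29 for Fdx1 and 2.81 for Hsd17b3.

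The next comparison sets Wv/Wv against wild-type testes. These differ in Kit in every cell as well as in germ cells, so the part of germ cells cannot be told apart. Germ cell markers were much lower in Wv/Wv testes. Dazl, an RNA-binding protein of germ cells, read 11.57 ± 0.21 (SD, n = 3) in wild-type and 4.70 ± 1.29 (SD, n = 2) in Wv/Wv testes at 14 dpc, and 9.31 ± 0.73 and 3.78 ± 0.13 (SD, n = 3 each) at 16 dpc. The germ cell helicase Ddx4 differed by -5.96 ± 0.78 (adjusted p = 5.36e-05) and -4.81 ± 0.70 (adjusted p = 0.000272) at these ages. Of the 17 germ cell markers measured, 2, 15 and 15 were called lower in Wv/Wv testes at 12, 14 and 16 dpc, with medians of -2.80, -4.51 and -4.18 where the median over all genes was 0.01, 0.01 and 0.12. Of all genes, 0.033%, 0.594% and 0.484% were called lower at these ages. The 2 of 17 at 12 dpc rest on the single wild-type array.

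None of the 8 steroid genes was called between Wv/Wv and wild-type testes at any age. Among all genes 0.033%, 0.594% and 0.484% were called at 12, 14 and 16 dpc. At an unadjusted p below 0.05 there were 0, 0 and 1 of the 8, against 132, 841 and 1318 of all 18194 genes. A missed call does not show that levels were alike, and the intervals say how large a difference the arrays allow. At 14 dpc the 95% interval of the Wv/Wv minus wild-type difference ran from -0.54 to 0.97 for Cyp11a1, from -0.55 to 0.82 for Cyp17a1, from -0.81 to 0.65 for Star and from -0.57 to 1.25 for Hsd3b1. It ran from -0.78 to 0.82 for Fdx1, from -0.49 to 1.31 for Hsd17b1, from -0.29 to 1.67 for Hsd17b3 and from -1.99 to 1.30 for Scarb1. Scarb1 thus had the widest interval, and for Cyp11a1 and Cyp17a1 the bounds are small beside rises of 5.52 and 7.41. The bounds also lay within the fitted wild-type rises of Star (3.89), Hsd3b1 (4.91), Fdx1 (2.40) and Hsd17b1 (2.01). They did not for Scarb1 (1.82) and Hsd17b3 (-0.29). The rises are point estimates with errors of their own, and those of Hsd17b1, Scarb1 and Hsd17b3 were not called. For Hsd17b1 the genotype difference is thus not shown to be smaller than the rise. All these rises start from the single wild-type array at 12 dpc. At 14 dpc 1 of the 2 Wv/Wv testis arrays is narrow-spread, and all wild-type testis arrays are wide-spread. On wide-spread arrays, 1 Wv/Wv against 3 wild-type, all 8 genes read higher in Wv/Wv, by 0.23 to 0.48 (median 0.34). Scarb1 and Star differed by 0.48 and 0.37 there, against -0.34 and -0.08 in the fit over all arrays. At 12 dpc all 8 means were lower in Wv/Wv, by -0.08 (Fdx1) to -1.07 (Hsd17b3), each interval including 0.

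At 16 dpc all 8 means were higher in Wv/Wv testes, by 0.43 to 0.88 with a median of 0.65, where all genes had a median of 0.12. Star (0.70, interval 0.04 to 1.35, adjusted p = 0.667) was the member with an unadjusted p below 0.05. The excess moved with 1 library. In the 2 wide-spread arrays of each genotype the differences were 0.03 to 0.34 with a median of 0.14, and between the single narrow-spread arrays they were 0.99 to 2.19. Without wild-type testis array 1 the median was 0.09, and with arrays centred on housekeeping genes it was -0.01.

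**Figure D3:**
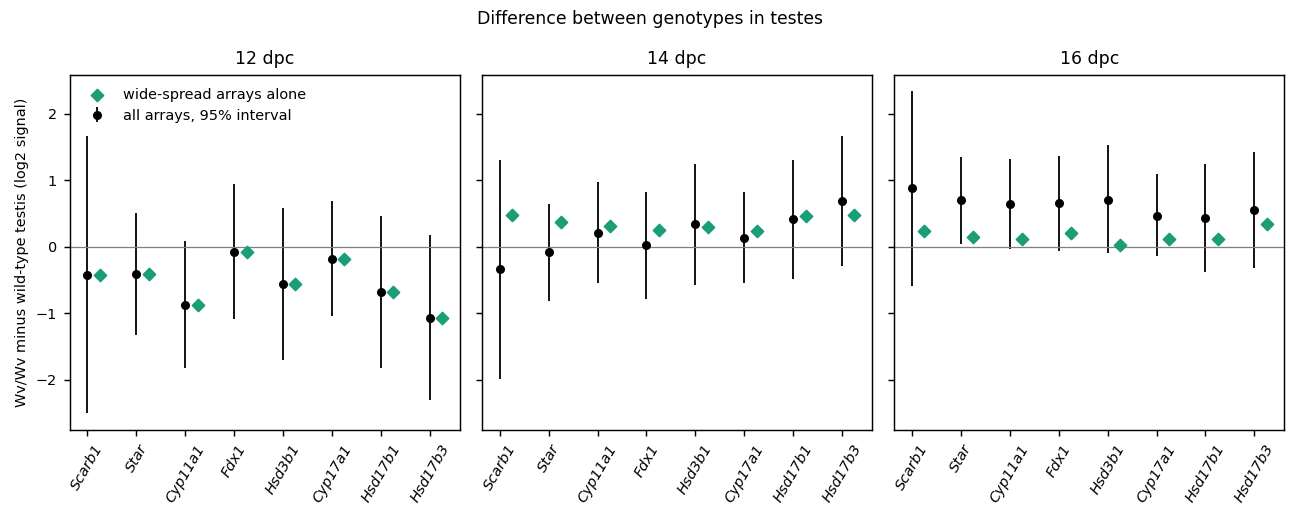
Wv/Wv minus wild-type difference in testes (vertical axis, log2 signal) for each gene at 12, 14 and 16 dpc. Black points are the fit over all arrays with 95% intervals, and green diamonds the difference of means over wide-spread arrays alone. Intervals include 0 except for Star at 16 dpc (0.04 to 1.35). The diamonds lie between 0.23 and 0.48 at 14 dpc, where they rest on 1 Wv/Wv array, and between 0.03 and 0.34 at 16 dpc.

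A test of whether the testis excess itself differed between genotypes called no member at any age. Of all genes, 0% were called at 12 dpc by limma (16 genes at an unadjusted p below 0.05), 0.275% at 14 dpc and 0.813% at 16 dpc. At 14 dpc the difference of differences was 0.51 ± 0.49 for Cyp11a1, 0.11 ± 0.44 for Cyp17a1, -0.57 ± 0.47 for Star and 0.73 ± 0.52 for Fdx1. Fdx1 was called (0.83, adjusted p = 0.0369) with the class in the fit and wild-type testis array 1 at 16 dpc left out. At 16 dpc the largest was 0.93 ± 0.60 for Hsd17b3 (adjusted p = 0.748).

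The Wv/Wv testes at 12 dpc were not uniform. Array 1 read higher than arrays 2 and 3 for all 8 genes, as with Hsd3b1 (7.93 against 6.13 and 6.65) and Hsd17b1 (6.68 against 4.53 and 4.69). The mean signal over 18 Sertoli markers was 9.24 in array 1 and 8.14 and 8.18 in arrays 2 and 3, with 8.94 in the wild-type array. The mean over 8 mesonephros and kidney tubule markers ran the other way, at 7.12, 8.29 and 8.35, with 7.12 in wild type. The part of tissue makeup in the 12 dpc values was not tested.

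In ovaries, genotype made no called difference for any member, against 0.0934%, 4.37% and 3.74% of all genes called at 12, 14 and 16 dpc. At an unadjusted p below 0.05 there were 0, 1 and 2 of the 8, against 139, 3054 and 4323 of all 18194 genes. Hsd3b1 was the closest at 16 dpc, at 1.14 ± 0.39 higher in Wv/Wv (adjusted p = 0.0985, no overlap between groups). It was called without wild-type testis array 1 at 16 dpc in the fit (1.14, adjusted p = 0.014) and without Wv/Wv ovary array 2 (1.37, adjusted p = 0.0464). The 3 wild-type ovaries and Wv/Wv array 2 (10.08) are narrow-spread. Within that class the Hsd3b1 difference was 0.69.

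With age, from 12 to 16 dpc, 2 of the 8 members were called in wild-type ovaries, against 7.68% of all genes, and 1 in Wv/Wv ovaries, against 3.69%. Hsd3b1 is the one called in both. The second in wild type was Cyp11a1, which read lower by 1.70 ± 0.37 on the log2 scale (adjusted p = 0.00534), below the low-signal limit and at least 1.64-fold. All wild-type ovaries were wide-spread at 12 dpc and narrow-spread at 16 dpc, so age and array class cannot be told apart there. The 2 wide-spread wild-type ovaries at 14 dpc had a Cyp11a1 mean of 4.78, against 6.1 in those at 12 dpc. The call from 12 to 16 dpc was lost without wild-type ovary array 2 at 12 dpc (-1.14, adjusted p = 0.19). It was also lost with arrays centred on housekeeping genes (-0.87, adjusted p = 0.1). In Wv/Wv ovaries Cyp11a1 differed by -1.06 ± 0.37 (adjusted p = 0.141) and Cyp17a1 by 1.02 ± 0.33 (adjusted p = 0.104), neither called. On the wide-spread arrays alone both were called, at -1.16 (adjusted p = 0.0117) and 1.18 (adjusted p = 0.00949).

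The enzymes that make cholesterol, the starting material, were also higher in the later testes. Of 18 cholesterol synthesis genes measured, 8 were called higher and 0 lower in wild-type testes than ovaries at 14 dpc (median 1.22, all genes -0.02), and 15 and 0 at 16 dpc (median 1.89, all genes -0.05). In Wv/Wv gonads 12 and then 16 were called higher and 0 lower, against 2.32% and 3.79% of all genes called higher. The size of the wild-type difference at 16 dpc moved with array class. The mean signal of the list was 8.80 in the narrow-spread testis array and 10.47 and 10.51 in the wide-spread ones, against 7.71 to 8.51 in the ovaries, which are all narrow-spread. Within the narrow class the median difference was 0.62, with 16 of 18 genes above 0, where all genes had a median of -0.25. Without that testis array in the fit, 13 were called higher at 14 dpc and 17 at 16 dpc (medians 1.22 and 2.34). With the class as a term 12 and 17 were called higher (medians 0.90 and 1.31). The calls over all genes, in either direction, grew as well. Their share was 8.97% and 26.2% without that array and 12.4% and 31.6% with the class term, against 5.93% and 9.65% in the main fit. In Wv/Wv at 16 dpc the median was 2.09 within wide-spread and 2.57 within narrow-spread arrays. Tm7sf2, a sterol reductase, led with 2.54 ± 0.43 at 14 dpc and 3.18 ± 0.43 at 16 dpc in wild type. Cyp51, the lanosterol demethylase, gave 1.98 ± 0.45 and 2.92 ± 0.45, and the sterol oxidase Msmo1 gave 1.71 ± 0.50 and 2.61 ± 0.50. Hsd17b7, a 17-beta-hydroxysteroid dehydrogenase family member that works in cholesterol synthesis, gave 1.79 ± 0.24 and 2.01 ± 0.24. Neither genotype at 12 dpc had a called gene of this list between testis and ovary, against 0.253% of all genes in wild type and 0.374% in Wv/Wv. None of the 18 was called between genotypes in testes at any age, against 0.033% to 0.594% of all genes.

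Other supply steps did not move as a group. Of all genes, 3.17% were called higher and 2.76% lower in wild-type testes than ovaries at 14 dpc. At 16 dpc these shares were 4.5% and 5.14%. Counts of 0 or 1 in a short list lie near such shares. Of 13 genes for cholesterol uptake, storage and transport, 0 were called higher and 1 lower in wild-type testes at 14 dpc, and 1 and 1 at 16 dpc. The one lower at both ages was Plin2, a lipid droplet coat protein (-1.39 ± 0.26 at 16 dpc), and the one higher was Stard4, a cytosolic cholesterol carrier (1.89 ± 0.40 at 16 dpc). None of 3 other electron donors was called at 14 or 16 dpc in either genotype. Of all genes, 3.69% to 9.65% were called in either direction in these comparisons. Of 13 other steroid-converting enzymes, 1 was called higher and 4 lower at 14 dpc in wild type. The higher one was Hsd11b2, which inactivates glucocorticoids (2.95 ± 0.41), and the lower ones were Akr1c14 (-2.48 ± 0.62), Hsd17b11 (-1.18 ± 0.30), Hsd17b2 (-1.12 ± 0.29) and Akr1c18 (-0.85 ± 0.21), enzymes that convert or inactivate steroids.

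Of 24 Leydig receptors, hormones and regulators, 9 were called higher and 1 lower in wild-type testes at 14 dpc, and 9 and 2 at 16 dpc. Of all genes, 3.17% were called higher and 2.76% lower at 14 dpc, and 4.5% and 5.14% at 16 dpc. The hedgehog targets Hhip (4.17 ± 0.47) and Gli1 (3.28 ± 0.34) and the inhibin and activin subunits Inhba (3.36 ± 0.35) and Inha (2.84 ± 0.40) led at 14 dpc, and Thbs2 was the lower one (-2.26 ± 0.25). Dhh, the hedgehog ligand of Sertoli cells, was already 4.31 ± 0.56 higher in the wild-type testis at 12 dpc (adjusted p = 0.000245) and 3.74 ± 0.42 higher in Wv/Wv (adjusted p = 1.4e-05). Nr5a1, the nuclear receptor that regulates many steroid genes, was not called at any age, with differences of 1.35 ± 0.53, 0.82 ± 0.35 and 0.81 ± 0.35 in wild type. Wild-type testis means of Nr5a1 were 10.68, 10.70 and 10.45 at 12, 14 and 16 dpc, so that the single 12 dpc array was already at the later level. Insl3 and Lhcgr, the other defining Leydig markers, were not analysed here. Of 18 Sertoli markers, 5 were called higher at 12 dpc, 10 at 14 dpc and 9 at 16 dpc in wild type, with 0, 0 and 1 lower. At 12 dpc 0.214% of all genes were called higher and 0.0385% lower. Pregranulosa cells are the supporting cells of the ovary, and of their 15 markers 12 were called lower and 1 higher in wild-type testes at 16 dpc. In the same comparison, of 11 stroma and smooth muscle markers 4 were called higher and 0 lower, and of 9 endothelial markers 1 and 0. Of 9 macrophage and leukocyte markers 0 were called. Of 7 erythroid markers 0 were called higher and 3 lower, and of 8 mesonephros and kidney tubule markers 0 higher and 3 lower. With 4.5% of all genes called higher and 5.14% lower, the counts of 0 or 1 lie near these shares. The part of cell makeup in the steroid transcripts was not tested.

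**Figure D4:**
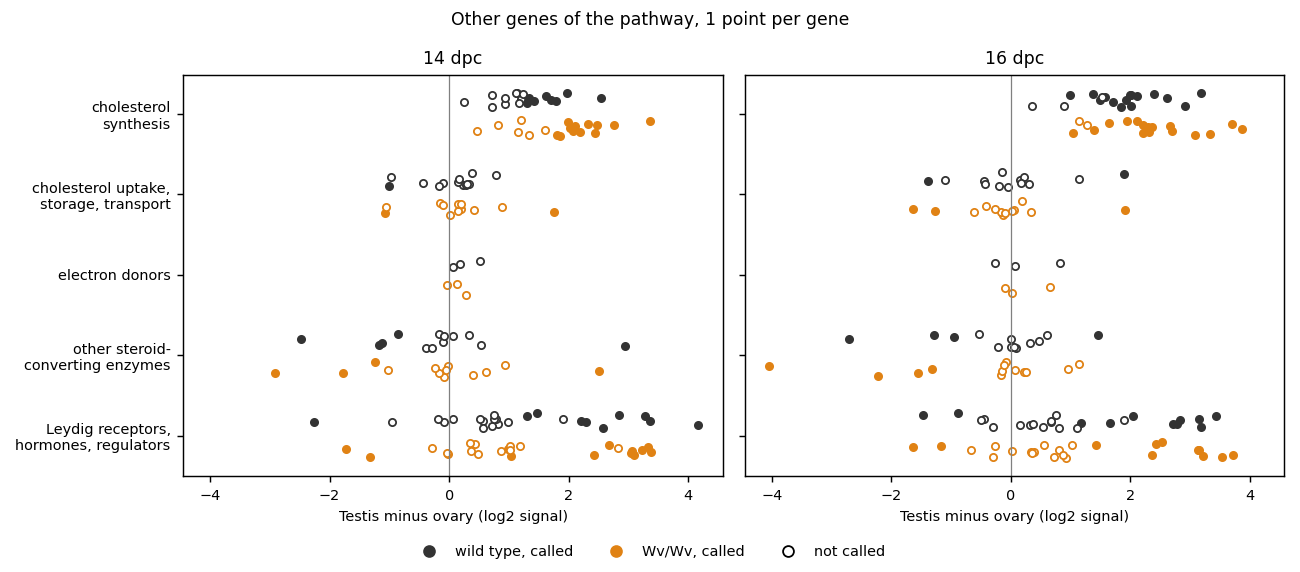
Testis minus ovary difference (horizontal axis, log2 signal) at 14 and 16 dpc for the genes of 5 lists (rows), 1 point per gene, in wild-type (dark) and Wv/Wv (orange) gonads. Filled points are called. In wild type at 16 dpc 15 of 18 cholesterol synthesis genes are called higher, against 1 of 13 uptake, storage and transport genes and 4.5% of all genes.

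The adrenal cortex makes steroids with several of the same enzymes, and the adrenal-type transcript Cyp11b1 rose in the testis at the same ages as the members. Of 6 adrenal enzymes and receptors, 2 were called higher and 0 lower in wild-type testes at 14 and at 16 dpc. Of all genes, 3.17% and 4.5% were called higher at these ages. Cyp11b1, the last enzyme of corticosterone synthesis, rose by 3.27 ± 0.40 from 12 to 14 dpc (adjusted p = 5.1e-05) and read 4.22 in the wild-type testis at 12 dpc, 7.49 ± 0.41 (SD, n = 3) at 14 dpc and 7.80 ± 0.04 (SD, n = 3) at 16 dpc, against 4.31 ± 0.23 and 4.74 ± 0.47 in ovaries. Mc2r, the corticotropin receptor, exceeded the ovary by 2.02 ± 0.34 and 1.34 ± 0.34 at 14 and 16 dpc, with wild-type testis means of Mc2r at 8.03, 7.98 and 7.67 at 12, 14 and 16 dpc and ovary means at 7.40, 5.96 and 6.33. The testis step of Mc2r from 12 to 14 dpc was -0.06 ± 0.47 (adjusted p = 1). Mrap, the accessory protein of that receptor, did rise in wild-type testes over this step, by 1.93 ± 0.29 (adjusted p = 0.000579), and was not called between testis and ovary at 14 dpc (0.64 ± 0.21, adjusted p = 0.0771). Cyp21a1, which defines adrenal steroid synthesis, read 7.09 ± 0.07 in testes and 6.70 ± 0.06 in ovaries at 14 dpc, a difference of 0.40 ± 0.21 (adjusted p = 0.422), and was called in Wv/Wv at 16 dpc (1.00 ± 0.21, adjusted p = 0.0021). The aldosterone enzyme Cyp11b2 was low throughout, with group means of at most 4.81. Their part in the levels of the 8 genes was not tested.

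Over the 12 group means, the 8 genes had close companions among 7836 candidates whose means ranged over at least 1 log2 unit. The 12 means share arrays and a sex-by-age pattern, and the correlations are descriptions. The nearest to Cyp11a1 were Alas1, Tm7sf2 and Slc45a3, the first with r = 0.99, and Alas1 encodes the first enzyme of haem synthesis. For Cyp17a1 they were Ephx1, Ms4a10 and Hsd17b7, and for Star they were Ephx1, Mgarp and Casq2. For Fdx1 they were Tm7sf2, Alas1 and Nsdhl, and for Scarb1 Msmo1, Dtx4 and Arhgap6. Hsd3b1 was nearest to Acsbg1, Prss35 and Srpx2, Hsd17b1 to Slc7a5, Nrg1 and Serpina5, and Hsd17b3 to Tusc1, Chst2 and Myo7a. Over the 12 group means an enzyme of cholesterol synthesis was among the 3 nearest genes of Cyp11a1, Cyp17a1, Scarb1 and Fdx1. Over the 31 single arrays this held for Scarb1 (Msmo1) and Fdx1 (Tm7sf2 and Nsdhl), whereas the nearest of Cyp11a1 were Rassf5, Gsta2 and Slc45a3 and those of Cyp17a1 were Rassf5, Mgarp and Ephx1. Of the 24 nearest genes over group means, 12 were also among the nearest 3 over single arrays.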

How the data were processed

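RNA from whole fetal gonads was hybridised to 31 Affymetrix arrays. The authors deposited log2 signals per probe set, made with RMA (a background, quantile and probe summary method) per the submitters' processing notes. The software version is not given in the sources used here. The deposited arrays do not share 1 distribution, with SDs over probe sets from 1.77 to 2.39. The labels do not say whether all 31 were normalized together. The table holds 45101 probe sets, of which 34958 carry 1 gene symbol in the platform annotation, 932 several and 9211 are not listed. Each of 18194 genes was read from its brightest probe set by mean signal. limma 3.58.1 in R 4.3.3 fitted 1 mean per group over all arrays (lmFit and eBayes, 19 residual degrees of freedom) in 21 comparisons, with p-values adjusted by Benjamini-Hochberg over all genes. The code was tested on simulated data. Precision is limited by the 1 to 3 arrays per group. The lists, and up to 4 called genes of each that the text names, follow a written rule, and the members and lists were chosen with earlier results of these data known.

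Alternatives were quantile normalization, centring on housekeeping genes, leaving out low-signal genes, a trended robust prior, the array class as a term, a replicate block, the compared arrays alone, and leaving out each array. The wide-spread arrays alone were added after seeing the data. Replicate numbers come from the labels. Deviations of same-numbered arrays correlated above 0.1 in every pair only for wild-type and Wv/Wv testes at 16 dpc among comparisons with 3 pairs (0.72, 0.60 and 0.66), where both arrays numbered 1 are narrow-spread. Promoter windows came from RefSeq (GRCm38.p6).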

Additional observations from a re-analysis of the deposited data

Results flagged for a closer look

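Between 12 and 16 dpc the means of Cyp11a1 moved in opposite directions in the 2 sexes, with every array of the later group on one side of the earlier group. It differed by 5.56 in wild-type testes and by -1.70 in wild-type ovaries, and by 7.07 in Wv/Wv testes and -1.06 in Wv/Wv ovaries. Fdx1 did so in wild type, with 2.16 in testes and -0.49 in ovaries. The difference between the sexes in these age changes was not tested. All wild-type ovaries at 16 dpc are narrow-spread arrays and all at 12 dpc are wide-spread, so age and class cannot be told apart there. On narrow-spread arrays Fdx1 read lower by -0.81 ± 0.13 (SE).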

How the results depend on the processing

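Of 44 called member differences, 647 of 663 alternative fits kept the call and its direction, 16 lost it and 0 reversed. Of 1937 alternative fits of the 124 uncalled differences, 56 became called and 137 changed sign. Centring on housekeeping genes moved the median of all genes by up to 0.79 (wild-type ovary, 16 minus 12 dpc). Between wild-type testis and ovary at 12 dpc, 1 member was called with the array class as a term, 2 with the class and without wild-type testis array 1 at 16 dpc, and 1 on wide-spread arrays alone, against 0. Of all genes, 0.802% were called with the class term and 1.35% with the class and without that array. For wide-spread arrays alone that share is not given. At 16 dpc 4 members were called when only the compared arrays were fitted, against 8, and the share of all genes in that fit is not given. With the class and without that array, 1 was called between ovary genotypes at 14 dpc (Fdx1), against 20.6% of all genes. At 16 dpc it was 1 (Hsd3b1), against 16.5%, and in the sex by genotype test at 14 dpc 1 (Fdx1), against 1.93%. Without that array alone, 1 was called between ovary genotypes at 16 dpc, against 16.3% of all genes, and leaving out single arrays gave 0 to 1. From 14 to 16 dpc in wild-type testes 1 member, Hsd17b1, was called under quantile normalization, housekeeping centring and the class term (1.55%, 1.07% and 3.08% of all genes). It was also called with the class term without that array (2.61% of all genes), without that array alone (0.857%), and on wide-spread arrays alone. Leaving out single arrays gave 0 to 1. From 12 to 16 dpc in Wv/Wv ovaries 3 were called under quantile normalization, 2 under housekeeping centring, 2 with the class term, 4 with the class term without that array, 3 without that array and 4 on wide-spread arrays, against 1. Of all genes, these fits called 6.6%, 4.75%, 10.6%, 17% and 6.49% in that order, against 3.69%. The share on wide-spread arrays is not given here. In wild-type ovaries leaving out single arrays gave 1 to 2. The cause of these shifts was not tested. Between wild-type testis and ovary at 14 dpc, 13 cholesterol synthesis genes were called without that array, against 8, an alternative added after seeing the data. In that comparison 8.97% of all genes were called without the array, against 5.93%. The share of all genes called higher or lower between wild-type testis and ovary at 16 dpc was 9.65%, and 31.6% with the class term. With the replicate number as a block (replicate block), 7 of 8 members were called between wild-type testis and ovary at 14 dpc and 8 of 8 at 16 dpc, and the block moved no count of member calls, including 0 between testis genotypes at 16 dpc.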
